A study of Drosophila melanogaster with 4 samples.

Results

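Histone H3 monomethylated at lysine 4 (H3K4me1) was mapped on the left arm of chromosome 3 (3L) of Drosophila melanogaster by chromatin immunoprecipitation and sequencing (ChIP-seq). The regions described are all peaks of the deposited list that were placed on 3L, 2875 of the 14326 peaks in all (20.1%). The 1 peak on the separate heterochromatic scaffold of the same arm was not counted among them. Wandering third-instar larvae of the strain Y cn bw sp were cross-linked in 1.8% formaldehyde for 15 min, and the series holds 2 ChIP samples and 2 input DNA samples. All 4 samples had the same strain and genotype, an unknown sex and no treatment named in the labels. The genotype lists the alleles y[1] and oc[R3.2], then Gr22b[1] and Gr22d[1] with cn[1], CG33964[R4.2] and bw[1] beside sp[1], and lastly LysC[1] and lab[R4.2] with MstProx[1], GstD5[1] and also Rh6[1]. Whole larvae were used per the labels' protocols, so the peaks mix all larval tissues. Whether samples of a kind came from separate batches of larvae is not stated in the labels. The list has 1 row per peak and no value per sample, so no spread between replicates can be given. Its sequencing depth is unknown. Nothing below was tested, and every SD is a spread over windows of the arm.

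H3K4me1 is laid down in flies chiefly by the methyltransferase Trithorax-related. It is commonly found at enhancers, both active and poised, and in the flanks of active promoters, where trimethylation of the same lysine takes the place next to the start of the gene. A chromosome arm of the fly runs from the telomere, through gene-rich euchromatin in which active and silent stretches alternate, to the repeat-rich heterochromatin around the centromere. On 3L the low coordinates are the telomere end and the high coordinates the centromere end. Positions are given in FlyBase release 5 coordinates, counted from 1. The genes under the peaks were not identified here, because the gene annotation used here belongs to another release.

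The peaks of 3L covered 4.12 Mb, which was 17.9% of the 22.9 Mb between the first base of the arm and the end of its last peak. There were 125.3 peaks per Mb. Peak width had a median of 790 bp; the middle 50% of peaks lay between 397 and 1652 bp, the narrowest peak measured 200 bp and the widest 21.1 kb. Narrow peaks under 500 bp were common but contributed little: they numbered 957 (33.3% of the peaks) and made up 7.62% of the covered bases. Peaks of 5 kb or wider were 4.35% of the peaks and made up 25.1% of the covered bases. The score given by the peak caller, whose scale is not stated, ran from 5.98 to 428 on 3L with a median of 31.5 and the middle 50% between 17.4 and 72.2. Score and width went together (Spearman's rho 0.88 across 2875 peaks, a description, since both values come from the same caller).

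The mark was spread unevenly over the arm. In 91 full windows of 250 kb counted from position 0, the median covered share was 16.4% and the quartiles were 9.71% and 26.2%. The extremes were 0.541% and 48.6%. None of these windows was without a peak, though sequence beyond the last peak is not among them. Of these windows, 10 had less than 5% of their sequence under peaks and 9 had more than 30%. The 18 richest windows held 36.6% of the covered bases of all windows and the 18 poorest held 4.90%. The 27 richest windows (29.7% of them) were needed to reach 50% of the covered bases.

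**Figure D1:**
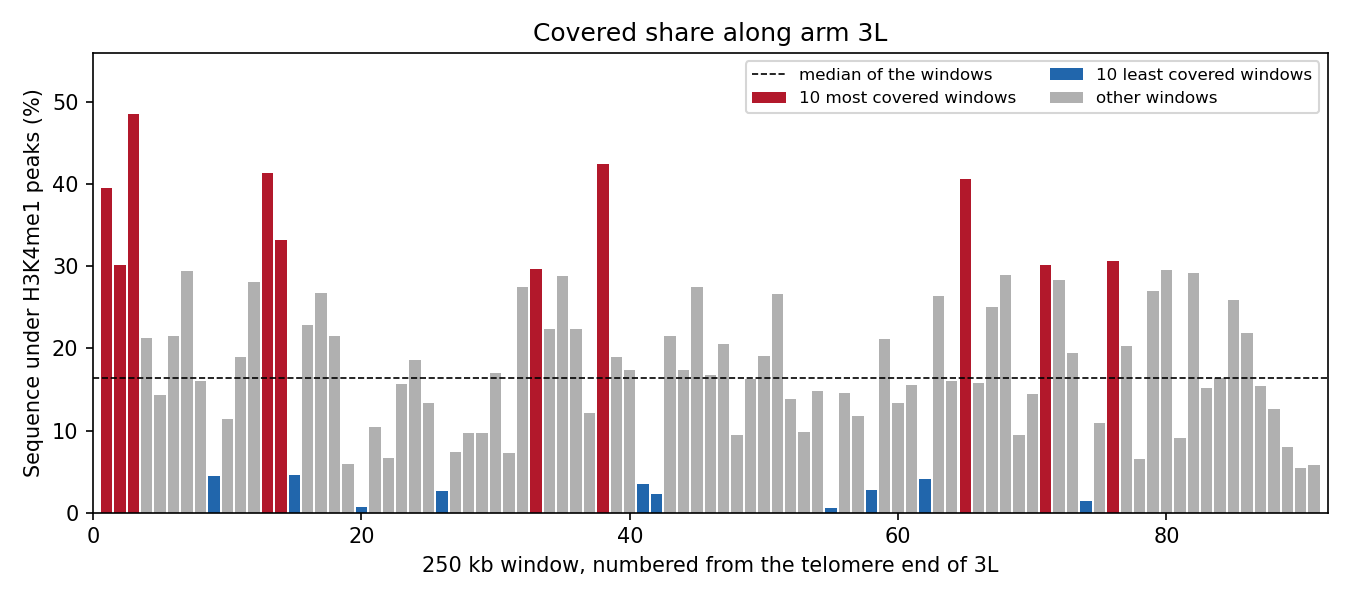
Share of sequence under H3K4me1 peaks (%, vertical axis) in each of the 91 full 250 kb windows of 3L, numbered from the telomere end (horizontal axis). Red bars are the 10 windows with the highest share (29.6% to 48.6%), blue bars the 10 with the lowest (0.541% to 4.56%), and the dashed line is the median of 16.4%; the marked windows lie between windows 1 and 76.

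The richest window of the arm was window 3, at 500001 to 750000, where 48.6% of the sequence lay under 64 peaks. The telomeric end held 2 more of the 10 richest windows. Window 1 (1 to 250000) was covered to 39.5% by 41 peaks, and window 2 (250001 to 500000) to 30.2% by 61 peaks. These 3 outermost windows thus formed one of the longest unbroken runs of windows above the upper quartile, with a mean of 39.4%, and window 4 followed with 21.3%. The first peak of the arm, at 1 to 21096, was the widest of 3L and had the sixth highest score there (361). Without it window 1 would be covered to 31.1% and rank 6 in place of 5. The treatment of reads that align to several places is not known, and repeated sequence at the chromosome end cannot be told apart from enrichment in that peak.

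The other run of 3 windows above the upper quartile was at 2750001 to 3500000, with a mean of 34.3%. It contains window 13 (3000001 to 3250000), covered to 41.4% by 40 peaks, and window 14 (3250001 to 3500000), covered to 33.2% by 71 peaks, the highest number of any window. These neighbours reached their coverage differently. The median peak was 1438 bp wide in window 13 and 572 bp in window 14, and peaks of 5 kb or wider gave 41.7% of the covered bases in the first and 19.4% in the second. Window 13 also held 2 of the 10 highest scoring peaks of the arm, at 3239806 to 3249310 (score 390) and at 3055917 to 3062726 (score 373).

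The remaining rich windows lay in the body of the arm. Window 38 (9250001 to 9500000) was covered to 42.4% by 50 peaks and stood between neighbours with 12.1% and 19.0%. Window 65 (16000001 to 16250000) was covered to 40.6% by 61 peaks, between neighbours with 16.02% and 15.8%. Further windows among the 10 richest were window 76 (18750001 to 19000000, 30.6%), window 71 (17500001 to 17750000, 30.2%) and window 33 (8000001 to 8250000, 29.6%). Window 76 was a single window above the upper quartile, whereas windows 71 and 33 each belonged to a run of 2, with means of 29.3% and 28.6%. Together the 10 richest windows held 22.5% of the covered bases of all windows. Each had at least 1 peak of 5 kb or wider, while 29 of all 91 windows had no covered bases from such peaks. The 10 windows had 39 to 71 peaks each. Both counts enter the share by which windows were ranked, so they are a description.

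The share of a rich window that lay in its leading regions varied widely. When neighbouring peaks separated by 1 kb or less were joined, each of the 10 richest windows contained 13 to 22 regions, and its 3 most covered regions held 32.7% to 76.7% of its covered bases (median 54.9%). The highest of these shares belonged to window 3, where 1 region alone held 41.2%. The lowest belonged to window 33, whose covered bases were spread over 22 regions with a longest region of 10.0 kb.

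The poorest window was window 55 (13500001 to 13750000), in which 2 peaks covered 0.541% of the sequence. It was followed by window 20 (4750001 to 5000000) with 3 peaks and 0.665%, and by window 74 (18250001 to 18500000) with 3 peaks and 1.43%. Windows 41 and 42, side by side at 10000001 to 10500000, were covered to 3.54% and 2.28%. The others of the 10 poorest were window 26 (6250001 to 6500000, 2.62%), window 58 (14250001 to 14500000, 2.70%), window 62 (15250001 to 15500000, 4.04%), window 9 (2000001 to 2250000, 4.44%) and window 15 (3500001 to 3750000, 4.56%).

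The poor windows had few peaks, and few of these were wide. The 10 poorest had 2 to 13 peaks each, against a median of 31 over all windows and 52 over the 10 richest. The median of their median widths was 596 bp, against 787 bp over all windows. In 9 of the 10 no peak of 5 kb or wider was present, and 29 of all 91 windows had no covered bases from such peaks. The exception was window 62, in which such a peak gave 57.1% of the covered bases. Peak number and width make up the share by which windows were ranked, so these counts are a description. The highest score in a poor window ranged from 31.8 to 251, the latter in window 62, and had a median of 108. Over all windows that median was 234, and over the 10 richest it was 305.

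Across the 91 windows the covered share followed the number of peaks more closely than their width. Spearman's rho was 0.87 with the number of peaks and 0.38 with their mean width, and the number and mean width were nearly unrelated to each other (rho -0.044). The share is made from number and width, so these values describe which of them varied and test nothing. Mean width set windows of like peak number apart: window 13 with 40 peaks of 2589 bp on average was covered to 41.4%, and window 1 with 41 peaks of 2410 bp to 39.5%, while window 4 with 41 peaks of 1300 bp was covered to 21.3%.

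**Figure D2:**
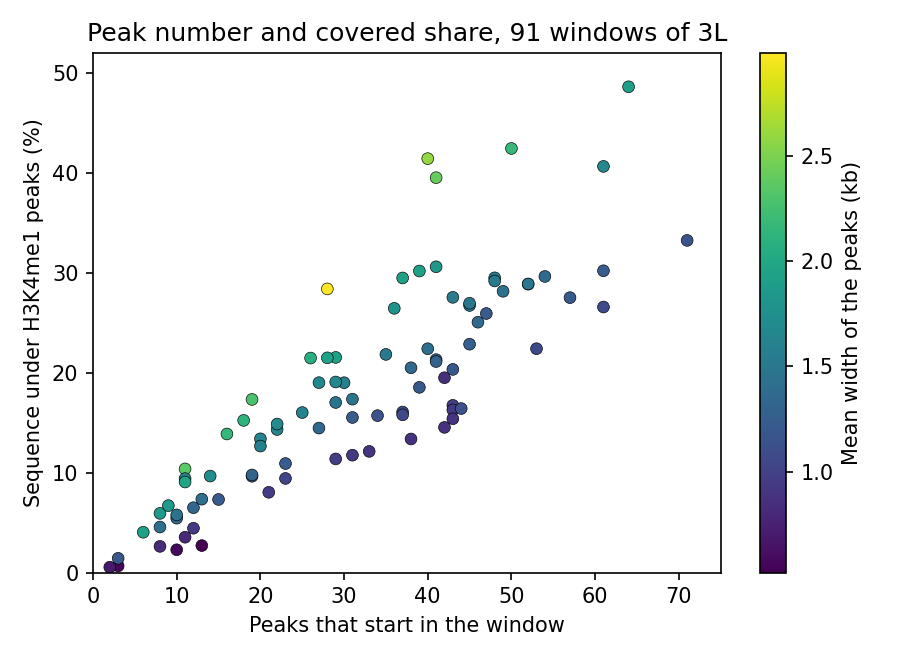
Share of sequence under peaks (%, vertical axis) against the number of peaks that start in the window (horizontal axis) for the 91 windows of 3L, with the mean peak width in kb as colour. The share goes up with the number of peaks (Spearman's rho 0.87), and at about 40 peaks the windows run from under 20% to 41.4%, with wider peaks in the higher ones.

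Coverage changed over short distances. Neighbouring windows were weakly alike (Pearson's r 0.26 over 90 pairs of adjacent windows), and windows one further apart hardly so (r 0.082 over 89 pairs). The median difference between neighbours was 9.03 percentage points. The steepest step was from 12.1% in window 37 to 42.4% in window 38, a difference of 30.3 points. The next was from 33.2% in window 14 down to 4.56% in window 15, a difference of -28.7 points. The 23 windows above the upper quartile formed 16 runs, 11 of them a single window, and the 23 below the lower quartile also formed 16 runs, 12 of them a single window. The longest run of either kind was windows 26 to 29 (6250001 to 7250000), all below the lower quartile, with a mean of 7.32%.

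From the telomere end to the last full window before the last peak, the arm showed no steady gradient. Any sequence nearer the centromere is not part of these values. The windows were divided in order into 5 sections of 18 or 19 windows. The outermost section had the highest mean, 23.2% ± 12.4 (SD, n = 19 windows), and the next section the lowest, 14.6% ± 8.82 (SD, n = 18 windows). The following sections had 16.6% ± 9.95 (SD, n = 18 windows) and 18.8% ± 9.74 (SD, n = 18 windows). The innermost section, which ends at 22750000, had 16.2% ± 9.42 (SD, n = 18 windows). The spread within every section was larger than the differences between sections, and 8.52% of the variance of the window shares lay between sections.

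**Figure D3:**
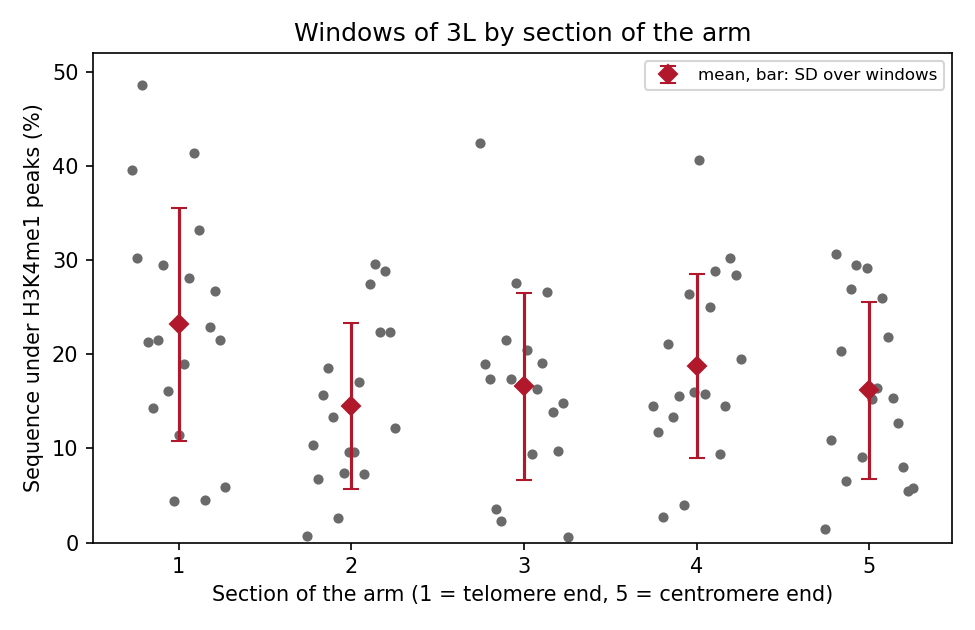
Share of sequence under peaks (%, vertical axis) of each 250 kb window, grouped into 5 sections of 3L in order from the telomere end (horizontal axis). Grey points are windows, red diamonds are means and bars are the SD over 18 or 19 windows; the outermost section has the highest mean (23.2%), and windows near 0 to 6% occur in all sections.

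The outermost section had the highest density of peaks. It held 147 peaks per Mb, against 114 to 131 in the other sections, and 8 of its 19 windows were above the upper quartile of the arm. Its median peak width was 825 bp and its median score 30.4, within the ranges of the other sections (758 to 848 bp, and 29.1 to 33.6). Peaks of 5 kb or wider were 5.74% of its peaks, against 2.69% to 5.27% elsewhere. Stretches of 50 kb or more without a peak took up 31.1% of its sequence, against 41.1% to 47.5% of the other sections.

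The difference between the outermost and innermost sections was 6.99 percentage points, and Spearman's rho of the share with window order was -0.11 over 91 windows. The section difference depended on which windows were taken. The first 4 windows had a mean of 34.9% and the last 4 a mean of 7.98%, while the 83 windows between them had a mean of 17.6% ± 9.70 (SD). With the first 4 and last 4 windows left out, a setting chosen after the values were seen, the difference between the outermost and innermost sections was -0.87 percentage points and rho was 0.075. Without the first 4 windows alone, again with new sections, they were 0.64 points and -0.012, and without the last 4 alone 4.29 points and -0.038. The new borders also moved windows between sections, so these differences do not give the effect of the left-out windows alone. The difference with the section borders kept was not computed.

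Towards the centromere each of windows 86 to 90 had a lower share than the window before it. Window 85 (21000001 to 21250000) was covered to 25.9%, and windows 86 to 88 to 21.8%, 15.4% and 12.7%. The last 3 full windows, 89 to 91 (22000001 to 22750000), had 8.04%, 5.45% and 5.77%, and formed a run below the lower quartile. The mark did not end there. The stretch beyond them, from 22750001 to the last peak at 22942990, is shorter than a window and was kept out of the summaries. Its 193 kb held 34 peaks and were covered to 21.8%, a value that is raised by ending the stretch at a peak. The last peak, at 22941489 to 22942990, was 1.502 kb wide and had a score of 35.8. Sequence of the arm beyond that peak, where the list has no peak of 3L, was not used here. The change towards the centromere is therefore described only up to that peak.

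Joining peaks across gaps of 1 kb or less gave 1137 regions on 3L, with a median width of 2366 bp and quartiles of 880 and 5639 bp. The regions spanned 4.78 Mb, or 20.8% of the arm up to its last peak, and peaks filled 86.2% of them. Of the 2874 gaps between neighbouring peaks, 1738 (60.5%) were short enough to be joined. The limit falls in a continuous range of gap sizes: the nearest gaps on either side of it were 1000 and 1006 bp, and 79 gaps were over 900 and up to 1000 bp long, against 64 in the next 100 bp. The smallest gap was 51 bp, and 233 gaps were 100 bp or shorter.

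Regions of a single peak were the most frequent kind of region. There were 465 of them (40.9% of regions), with a median width of 690 bp. They held 16.2% of the peaks and 13.8% of the covered bases. Regions of 2 peaks numbered 281 and had a median width of 2424 bp. Regions of 3 to 4 peaks numbered 231, with a median of 4842 bp. The 145 regions of 5 to 9 peaks had a median width of 9531 bp. They held 31.3% of the peaks and 32.6% of the covered bases, more than any other of these classes. The 15 regions of 10 or more peaks had a median width of 18835 bp and held 6.14%. Regions of 10 kb or longer numbered 122 (10.7% of regions) and contained 41.4% of the covered bases.

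The longest region, at 600105 to 655403 in window 3, was 55.3 kb long. It joined 16 peaks that filled 90.5% of it, of which the widest was 15.96 kb. The second longest, at 17981450 to 18019144, was 37.7 kb long with only 5 peaks that filled 97.6%. It lies across the border between windows 72 and 73, which is 1 of the 17 cases where a window border divides a region. The third, at 9347800 to 9381351 in window 38, was 33.6 kb long with 8 peaks.

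Of the other regions among the 10 longest, the one at 10649307 to 10678945 (29.6 kb, 6 peaks) contained the peak with the highest score on the arm (428, at 10657950 to 10678945). That peak was 21.0 kb wide and stood in a window covered to only 21.5%. The region at 13468055 to 13496944 (28.9 kb, 7 peaks) lay 10.7 kb from the longest gap between peaks of 3L. Window 3 held another, at 540982 to 567146 (26.2 kb, 7 peaks), and window 1 held 2, at 155472 to 180931 (25.5 kb, 12 peaks) and at 1 to 24709 (24.7 kb, 3 peaks). The list was completed by 20374322 to 20399406 (25.1 kb, 7 peaks) and 2796108 to 2820298 (24.2 kb, 11 peaks). The 10 longest regions held 6.90% of the covered bases of the arm, and 5 of them lay in the outermost section. That section held 258 of the 1137 regions, and 32 of the 122 regions of 10 kb or longer. Long regions also add to its coverage, so the count is not separate from it.

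A large number of peaks did not always make a long or strong region. The region at 16468156 to 16484510 also joined 16 peaks, but was 16.4 kb long, was filled to 70.2% and had a highest score of 95.1. The region at 13928319 to 13940791 joined 15 peaks in 12.5 kb. Its peaks filled 56.1%, the widest was 1.07 kb and the highest score was 43.9, the lowest among the regions of 10 or more peaks. The regions with the next highest numbers were at 722914 to 740571 (13 peaks, 17.7 kb, filled to 79.1%) and at 155472 to 180931 (12 peaks).

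**Figure D4:**
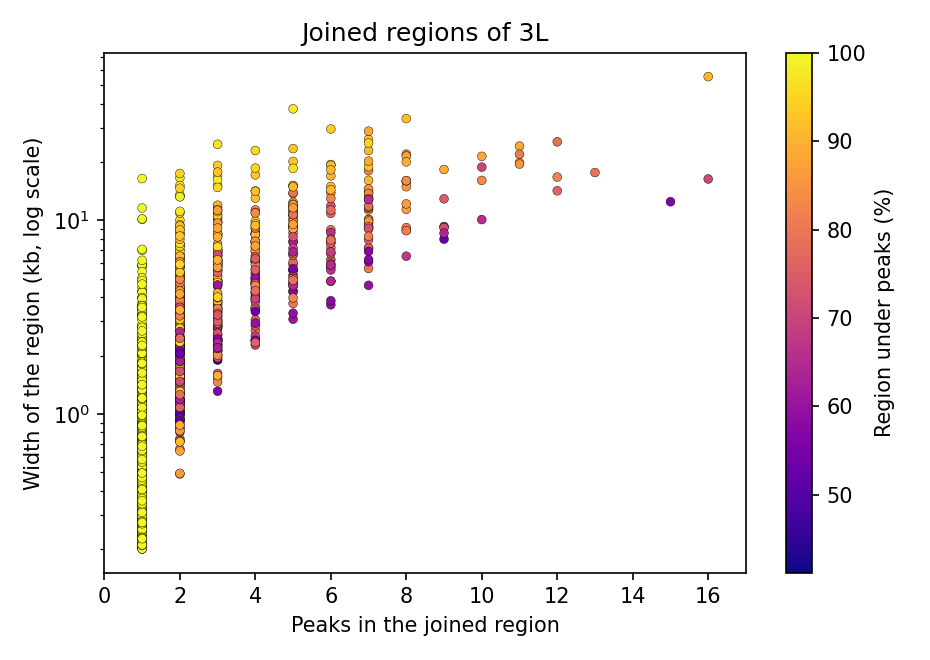
Width of each of the 1137 joined regions of 3L (kb, log scale, vertical axis) against the number of peaks in it (horizontal axis), with the share of the region under peaks (%) as colour. The longest region (55.3 kb, 16 peaks) and a region of the same peak number (16.4 kb) stand apart in width, and a region of 5 peaks reaches 37.7 kb.

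The strongest single peaks were not all in the richest windows. Of the 10 peaks with the highest score, 5 lay in the 10 richest windows, and of the 10 widest, 4 did. These windows were 10 of the 91 and held 22.3% of the covered bases of the arm. Wide peaks themselves raise the share by which windows were ranked, so the counts are a description. Of the 2875 peaks, 2 were among both the 10 highest scoring and the 10 widest. The second highest score of the arm (424) belonged to a peak of 3.93 kb at 14751118 to 14755051, in a window covered to 13.4%. Some high scores belonged to peaks well short of the widest: the peak at 2587528 to 2589113 was 1.59 kb wide with a score of 339, and that at 9420160 to 9422801 was 2.64 kb wide with a score of 375. The other high scores were at 21266456 to 21278769 (350), 1738542 to 1746579 (350) and 8048787 to 8053440 (348). Among the widest peaks, that at 628989 to 644951, inside the longest region, was 15.96 kb wide with a score of 99.4, which ranked 511 among the scores of the arm. The peaks at 15523287 to 15543567 (20.3 kb, score 238) and 543578 to 562557 (19.0 kb, score 276) were the third and the fourth widest. The remaining wide peaks, at 20377547 to 20394570, 12781610 to 12798039, 3071699 to 3087780, 17996649 to 18012704 and 19886077 to 19902012, were 15.9 to 17.0 kb wide.

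Between the rich stretches lay long sequence without any peak. On 3L 96 gaps of 50 kb or more added up to 9.34 Mb, or 40.7% of the arm up to its last peak, and 31 of them were 100 kb or more. The longest gap between neighbouring peaks, at 13507615 to 13853867, measured 346 kb and took up most of the poorest window. Any sequence beyond the last peak was not counted as a gap. The next were at 15256029 to 15487525 (231 kb), at 4900705 to 5127424 (227 kb), at 18395573 to 18612047 (216 kb) and at 22464729 to 22663706 (199 kb). The regions that bordered these 5 stretches had 1 to 6 peaks and widths from 0.411 to 7.23 kb, beside a median of 2366 bp and an upper quartile of 5639 bp over all regions of the arm, and in 9 of the 10 the highest score was between 24.5 and 73.1. The exception was the region at 5127425 to 5134658, with a score of 208. Stretches that lack the mark and stretches to which reads cannot be aligned cannot be told apart in this list.

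Arm 3L was set beside the arms 2L and 3R and the X chromosome, each taken only up to its last peak. It lay between the others in the median and the spread of its windows. Its densities of peaks and of joined regions were the highest of the 4 up to the last peak. Arm 2R was not among the arms compared, so the order holds for these 4 only. Full lengths of the arms were not used, and over whole arms the order could differ. The median window share was 16.4% on 3L, beside 13.4% on 2L, 15.7% on 3R and 19.3% on X. The SD over windows was 10.9, 9.88 and 13.6 percentage points on 2L, 3R and X, against 10.4 on 3L. The density of peaks, 125.3 per Mb on 3L, was 107 on 2L, 119 on 3R and 113 on X, and that of joined regions, 49.6 per Mb on 3L, was 42.6, 46.2 and 41.0. Regions of 10 kb or longer held 41.4% of the covered bases on 3L, 42.5% on 2L, 46.1% on 3R and 59.1% on X. On 3R the low coordinates are the centromere end, so its windows were taken in reverse order. The outermost minus the innermost section was 6.99 percentage points on 3L, while the values were 6.61 on 2L, -4.51 on 3R and 8.87 on X. Spearman's rho of the share with window order was -0.11 on 3L, beside -0.39 on 2L, 0.071 on 3R and -0.18 on X. Stretches of 50 kb or more between peaks took up 40.7% of 3L up to its last peak, beside 48.3% of 2L, 42.2% of 3R and 47.2% of X. Each arm is a single item in a single list, so these differences were not tested.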

How the data were processed

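The deposited data are 1 list of peaks for 2 ChIP and 2 input samples. Per the file headers the positions are in FlyBase release 5, and the source of the peaks is MACS. BWA, MACS2, the build BDGP5 and CASAVA (1.7.0.2, 1.7.0.3) appear in the submitters' processing notes. For the settings, the peak threshold and any pooling of samples nothing was found in those sources. Every peak carries a score from the authors' peak caller as deposited, on a scale that is not stated, and it was used only to describe, rank and filter peaks. Starts were read as counted from 0, since a peak of 3L starts at 0.

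Covered bases were summed in windows of 250 kb from position 0 up to the last full window before the last peak. Stretches without a peak were taken between neighbouring peaks only. A peak was counted in the window that holds its start. Peaks were joined across gaps of 1000 bp or less. Windows were put into 5 sections by order. The functions were tested on simulated peaks with known coverage. The 4 samples have no values of their own, so depth is unknown, and no test or replicate error was computed. Under other settings, medians were set against 95% binomial order-statistic intervals over windows or regions, shares against 95% binomial intervals, section differences and rho against their standard error over windows, and counts against a factor of 1.5. These yardsticks treat windows and regions as independent. Named are the 10 richest and poorest windows, the 10 longest regions and the 5 with most peaks, of which a tie at 12 peaks is given in part, the 10 highest scoring and 10 widest peaks, the 5 longest stretches without a peak and the end peaks; windows named for comparison were chosen after their values were seen. The arm, the measures and these rules were chosen with earlier results of these data known. Python 3.11.15, numpy 2.4.6, pandas 2.3.3, scipy 1.17.1 and matplotlib 3.10.9 were used.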

Additional observations from a re-analysis of the deposited data

How the results depend on the processing

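Of 45 alternative values, 30 stayed within the yardstick set for the reported value (for peaks per Mb in the section difference, the sign alone), 13 moved beyond it and 2 reversed. Leaving out the first 4 and last 4 windows, with the rest divided anew into 5 sections, was added after seeing the data. The sign of both measures of the telomere-to-centromere change then reversed (section difference -0.87 percentage points, rho 0.075). Leaving out the first 4 alone, again with new sections, moved the section difference to 0.64. The first 4 and last 4 windows had means of 34.9% and 7.98%, and the section borders moved as well. What each contributed was not separated. In peaks per Mb the section difference was 30.7. The upper 50% and upper 25% of scores were cut on the whole list and kept 1395 and 667 of the 2875 peaks of 3L. With these peaks the median window share was 13.2% and 9.65%, and the covered share of the arm 14.7% and 10.5%. With peaks of 500 bp or wider the covered share of the arm was 16.6%, and with joined regions in place of peaks 20.8%. These follow from fewer peaks or added gaps. Of the 10 richest windows, 7 stayed among the 10 richest with the upper 50% of scores and 7 with the upper 25%; of the 10 poorest, 10 and 8 did. Ranked by peaks per window in place of covered share, 5 of the 10 richest and 7 of the 10 poorest were shared, with a tie at 10 peaks broken by position. The median region width was 1460 bp at gaps of 500 bp or less, 3681 bp at 2000 bp or less and 2845 bp in the upper 50% of scores, and regions of 1 peak were 60.4%, 28.1% and 58.3% of all. No paired analysis was possible because peaks carry no values for the separate samples, and no replicate could be left out. What depth limits is unknown.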
